A study of Mus musculus with 12 samples.

Results

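Tumour necrosis factor (Tnf), 3 receptors of its family and the intracellular genes that pass their signal toward NF-kB or toward cell death were followed in cultured mouse oligodendrocytes (OLs) after interference with Egr2. The 10 genes were taken by symbol from the count table: the ligand Tnf, the receptors Tnfrsf1a, Tnfrsf1b and Tnfrsf12a, the adaptors Tradd, Traf1 and Traf2, the kinase Ripk1, and the death regulators Cflar and Casp8. All 10 were among the 56860 genes listed, and 9 of them were among the 16600 genes with enough counts to be tested. Tnf was the one that was not.

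The cells were primary OLs of C57BL/6J mice, in both groups alike. Cells carrying the surface antigen O4 were taken with magnetic beads from the cortex of pups at postnatal day 6 to 7, expanded with PDGF-AA, and matured in medium with triiodothyronine and ciliary neurotrophic factor. The labels give the tissue as medial prefrontal cortex. The siEgr2 group (6 libraries) received an interfering RNA against Egr2 and the siNC group (6 libraries) a scrambled one, and both were collected 48 h later. Egr2 is a zinc finger transcription factor of myelinating cells. No source used here says whether the 6 libraries of a group came from separate cultures, so the p-values measure the spread between libraries, which may be technical.

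TNF is a cytokine made as a membrane protein and cut free by a protease. Its receptor Tnfrsf1a carries a death domain and recruits Tradd, Ripk1 and Traf2, from which ubiquitin-dependent signalling turns on NF-kB. When that signal fails, a second complex forms in which Casp8 is activated, and Cflar, a relative of Casp8 without protease activity, holds this step in check. In the brain TNF comes mainly from microglia, astrocytes respond to it strongly, and both of its receptors have been linked to the loss or repair of oligodendrocytes.

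The siNC libraries held 28682946 to 39383014 counts each and the siEgr2 libraries 8034251 to 16683677, and 18S ribosomal RNA took 0.142% to 1.05% of siNC counts and 10.5% to 16.5% of siEgr2 counts. Since each of these separates the groups in the same way, neither can be told apart from the treatment. Egr2 itself stood at 3.89 to 7.06 CPM (counts scaled to library size, with TMM factors, in units of 1e6 counts) in siNC and at 2.22 to 4.86 CPM in siEgr2, ranges that overlapped. Its log2 fold change was -0.51 and missed the threshold in edgeR's quasi-likelihood test (adjusted p = 0.0981). All 15 markers of the oligodendrocyte lineage were present, with a summed level of 11410 to 12375 CPM in siNC and 11571 to 11995 CPM in siEgr2. The 12 astrocyte markers summed to 8608 to 9312 CPM in siNC and to 5499 to 6217 CPM in siEgr2, and 6 of them were lower by the test. Of 9 tested fibroblast and pericyte markers 4 were lower, with overlapping sums of 838 to 1390 CPM and 848 to 1052 CPM. The part of these cell types in the results was not tested. In bulk RNA, fewer cells of a type and less RNA per cell cannot be told apart.

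Between siEgr2 and siNC, 2 of the 9 tested genes were lower, Casp8 and Traf1. Calls needed a log2 fold change beyond 0.5 in size as well as adjusted p under 0.05. Of all tested genes 7.72% were called, 5.08% as lower. No member was called higher by edgeR (0, against 2.63% of all tested genes), none was higher at an unadjusted p under 0.05 (0 in edgeR), and DESeq2 and limma-voom also called 0. The adjusted p alone, without the fold change, was passed by 3 members, all lower: Casp8, Traf1 and Tnfrsf1a. Of all tested genes, 19.9% passed it, 11.3% as lower and 8.57% as higher. In 3 members, Tnfrsf1a, Cflar and Casp8, every siEgr2 library lay below every siNC library, as in 7.00% of all tested genes. The median log2 fold change of the 9 tested members was -0.29, and that of all tested genes was 0.0046. The estimate was below 0 in 8 members, and in 49.1% of all tested genes.

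**Figure D1:**
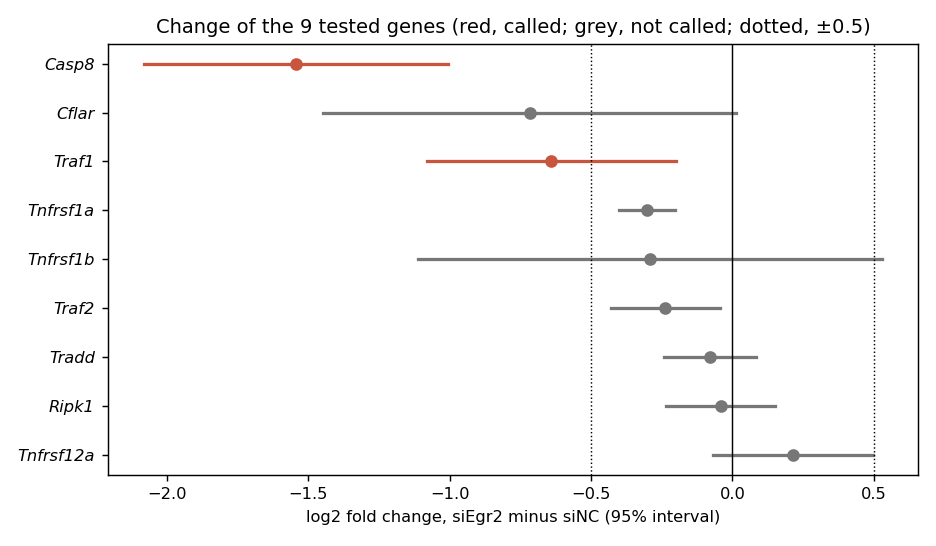
Log2 fold change (siEgr2 minus siNC, x axis) of each tested gene with its 95% interval from edgeR's quasi-likelihood fit; dotted lines mark 0.5 in either direction, and red marks the called genes. Casp8 stands apart at -1.54 with an interval from -2.08 to -1.01, Traf1 is the other called gene at -0.64, and the intervals of Cflar, Tnfrsf1b, Tradd, Ripk1 and Tnfrsf12a include 0.

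Per kilobase of exon, the 10 genes spanned a wide range of levels in the siNC libraries. Tnfrsf1a was highest at 65.0 ± 4.96 CPM per kb (SD, n = 6), followed by Tnfrsf12a at 11.0 ± 1.70 and Tradd at 7.40 ± 0.449 CPM per kb. Traf2 (4.15 ± 0.425 CPM per kb), Ripk1 (3.79 ± 0.344 CPM per kb) and Cflar (3.38 ± 0.149 CPM per kb) came next, and each of these overlapped with its neighbour in the order. Casp8 stood at 1.31 ± 0.251 CPM per kb, Traf1 at 0.660 ± 0.175 and Tnfrsf1b at 0.631 ± 0.0582 CPM per kb, the last pair overlapping. Tnf was lowest at 0.244 ± 0.141 CPM per kb. The receptor that can start death signalling was thus present at a far higher level per length than the ligand, and the other TNF receptor, Tnfrsf1b, was near the bottom of the order. Lengths are the union of all annotated exons, which is long for Cflar (12669 bp) and Traf1 (8819 bp) and lowers their level on this scale.

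**Figure D2:**
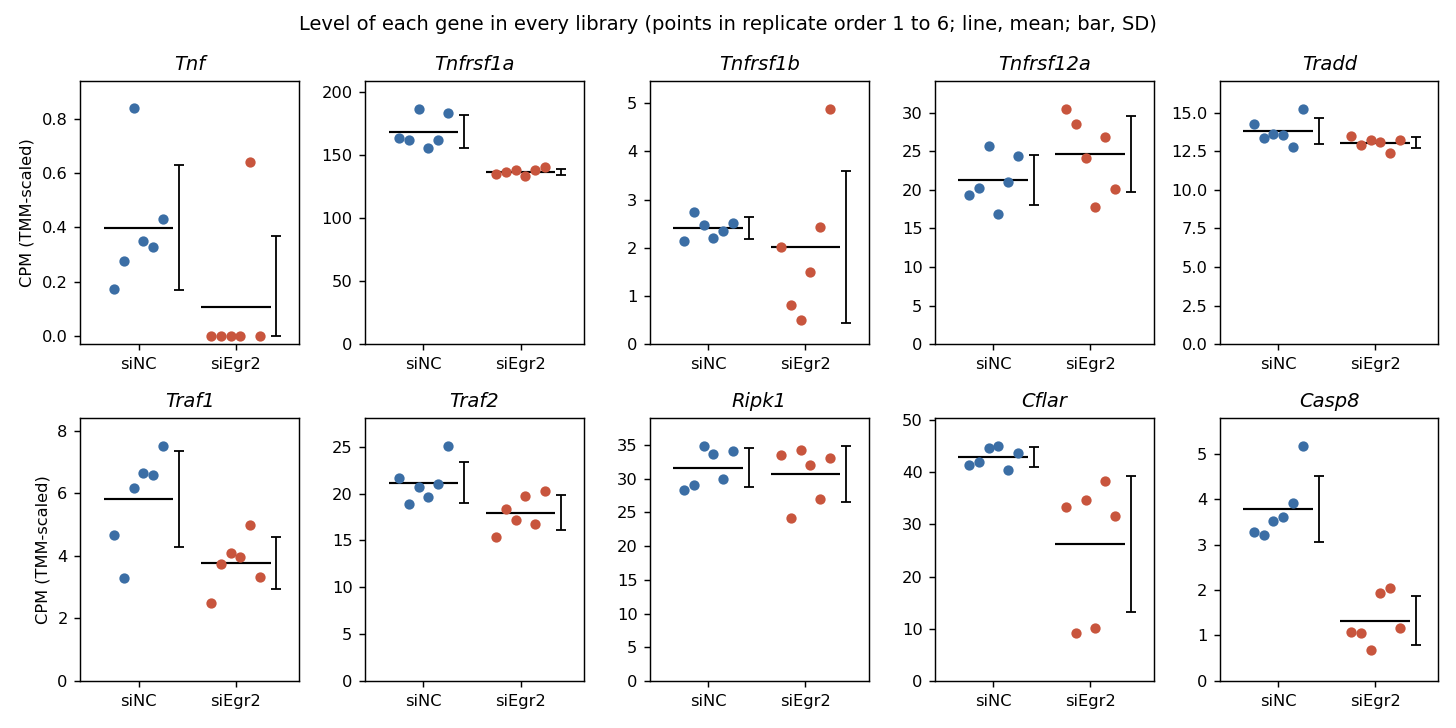
CPM (y axis, linear) of each of the 10 genes in all 12 libraries, with points in replicate order within a group, the mean as a line and the SD as a bar (cut at 0 for Tnf in siEgr2). The Casp8, Cflar and Tnfrsf1a points of the siEgr2 libraries all lie under those of the siNC libraries, 2 siEgr2 libraries hold very little Cflar, and Tnf is at 0 in 5 siEgr2 libraries.

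Tnf, the ligand, lies on chromosome 17 of GRCm38 from 35199381 to 35202007. In the order of the replicate numbers, the siNC libraries held 6, 9, 26, 12, 10 and 18 Tnf counts, and the siEgr2 libraries held 0, 0, 0, 0, 5 and 0. On the CPM scale the siNC libraries ran from 0.174 to 0.838, with a median of 0.339, and the single siEgr2 library with counts, replicate 5, stood at 0.640 CPM, inside the siNC range. Every siNC library held some Tnf, and 1 of 6 siEgr2 libraries did. Pooled over libraries, 81 counts gave 0.396 CPM in siNC (95% exact Poisson interval 0.314 to 0.492) and 5 counts gave 0.0668 CPM in siEgr2 (0.0217 to 0.156). The pooled ratio was 0.169, with an interval of 0.0534 to 0.411. These intervals cover counting error only. At the pooled siNC level, the siEgr2 libraries would hold 3.09 to 6.41 Tnf counts, the fewest in replicate 5, the smallest library. In the 5 libraries at 0, the absence of counts allows up to 3 counts, or 0.185 to 0.292 CPM, which lies below the interval of the pooled siNC level. The siNC libraries of replicates 1 and 2, at 0.174 and 0.275 CPM, were within or below those limits.

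The difference in the mean of log2(CPM + 0.5) of Tnf was -0.61 (exact permutation test over all assignments of the 12 libraries, two-sided, p = 0.0346). The smallest p this design allows is 0.00216. That call did not hold throughout. Thinning every library to the smallest total gave -0.40 (exact permutation test, p = 0.177), and in 8 of the 12 values that each left out 1 library p was over 0.05. The library with the 5 counts weighed most on the size: leaving out siEgr2 replicate 5 gave -0.81 (p = 0.00433, exact permutation test). Without a filter on low counts, the log2 fold change of Tnf in edgeR was -2.28 with an adjusted p of 0.166, which is not a call.

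Microglia, the main source of TNF in brain tissue, left little trace in these libraries. Of 20 microglia markers, 15 had a mean level under 1 CPM, and Aif1, Itgam, Gpr34 and Siglech had no counts in any library. The summed level of the list was 31.0 to 40.1 CPM in siNC and 26.5 to 38.3 CPM in siEgr2. The summed microglia signal was small in both groups and overlapped between them. Whether microglia had a part in the Tnf counts was not tested. Adam17, the protease that cuts TNF from the membrane, stood at 68.3 ± 16.1 CPM in siNC and 69.5 ± 13.3 CPM in siEgr2 (SD, n = 6 each), with a 95% interval of the log2 fold change from -0.36 to 0.42. Its partner Rhbdf2, which brings the protease to the cell surface, fell from 4.22 ± 0.945 to 1.52 ± 0.367 CPM (SD, n = 6 each), a log2 fold change of -1.48 (edgeR, adjusted p = 0.000124), and its groups did not overlap.

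Tnfrsf1a, the receptor with a death domain, lies on chromosome 6 from 125349362 to 125362484. The siNC libraries ran from 155.0 to 186.1 CPM with a median of 162 CPM, and the siEgr2 libraries from 133.0 to 140.1 CPM with a median of 137 CPM. All siEgr2 libraries were below all siNC libraries, and they were close together, with a coefficient of variation of 1.85% against 7.63% in siNC. That spread is no wider than counting error alone would give on 1075 to 2234 counts, and is not read as a trait of Tnfrsf1a. The log2 fold change was -0.30 ± 0.047 (SE; edgeR, adjusted p = 0.000244). The decrease passed the p-value but not the fold change threshold, and this held in all 22 alternatives, over which the log2 fold change ran from -0.48 to -0.27.

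Tnfrsf1b, the second TNF receptor, which lacks a death domain, lies on chromosome 4 from 145213463 to 145246870. Its siNC libraries were tight, from 2.15 to 2.75 CPM with a median of 2.42 CPM. In siEgr2 it stood at 2.02, 0.814, 0.494, 1.495, 2.43 and 4.87 CPM in replicate order, on 8 to 50 counts. Replicates 1 to 4 were thus below the siNC range, replicate 5 was within it and replicate 6 above it. The log2 fold change was -0.29 with a 95% interval from -1.11 to 0.53 (edgeR, adjusted p = 0.658). It moved to -0.77 without siEgr2 replicate 6 and to -0.075 without siEgr2 replicate 3, with no call in either. Among the 2537 tested genes within 2-fold of its mean level, 4.57% varied as much or more among the siEgr2 libraries, a comparison chosen after the values were seen.

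Tnfrsf12a, the receptor for the TNF-like cytokine Tnfsf12, lies on chromosome 17 from 23675445 to 23677468. It was the only tested member with an estimate above 0. The siNC libraries ran from 16.9 to 25.7 CPM with a median of 20.6 CPM, and the siEgr2 libraries from 17.7 to 30.5 CPM with a median of 25.5 CPM. The groups overlapped over most of their range, and the log2 fold change was 0.21 (95% interval -0.069 to 0.50, edgeR, adjusted p = 0.293). Its ligand Tnfsf12 had a log2 fold change of -0.40 (edgeR, adjusted p = 0.576) and was named because the receptor is a member.

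The promoter of Tnfrsf12a is shown because, of the 9 members with a promoter window, it alone held a consensus motif of the Egr family. In RefSeq windows on GRCm38.p6, of 250 bases before to 50 bases after each gene start, 9 of the 10 members had an entry, and Tradd is named only. The letters GCGTGGGCG and GCGGGGGCG, both recognised by Egr proteins, the NF-kB consensus, the GC box GGGCGG and the TATA box (letters TATAAA) were searched on both strands. Of 32851 windows of that length over all genes, 0.612% held the former Egr motif and 2.91% the latter. Tnfrsf12a held GCGGGGGCG at -54 and -48 from its start, and these matches overlap each other and GGGCGG, which 35.7% of windows held. The 100 bases before the start (chr17:23677450-23677549, minus strand) read as follows, with the joined matches in capitals.
Tnfrsf12a: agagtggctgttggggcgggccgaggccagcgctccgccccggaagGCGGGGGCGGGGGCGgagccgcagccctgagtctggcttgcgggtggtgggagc
A match is a run of letters and not a measured binding site. Whether Egr2 acts on Tnfrsf12a through these letters was not tested.

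Among the adaptors, Tradd docks on the death domain of the receptor and was not called. It lies on chromosome 8 from 105258286 to 105264609 and ran from 12.8 to 15.2 CPM in siNC (median 13.6 CPM) and from 12.4 to 13.5 CPM in siEgr2 (median 13.2 CPM). The log2 fold change was -0.078, with a 95% interval from -0.24 to 0.085, and it moved to -0.23 after thinning and to -0.26 with library size only (edgeR, adjusted p = 0.0154), short of the fold change threshold. The siEgr2 libraries again lay close together, with a coefficient of variation of 2.84%. On 97 to 214 counts per siEgr2 library, counting error alone would give a wider spread, so this closeness is not read as a trait of Tradd.

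Traf2, the adaptor that brings ubiquitin ligases to the receptor, lies on chromosome 2 from 25517982 to 25546940. It ran from 18.9 to 25.1 CPM in siNC with a median of 20.9 CPM and from 15.4 to 20.3 CPM in siEgr2 with a median of 17.8 CPM. The groups overlapped, and the log2 fold change was -0.24 (95% interval -0.43 to -0.045, edgeR, adjusted p = 0.0788), which was not called.

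Traf1, a relative of Traf2 that is itself induced by NF-kB, lies on chromosome 2 from 34941750 to 34961772. The siNC libraries stood at 4.68, 3.30, 6.19, 6.64, 6.58 and 7.52 CPM in replicate order and the siEgr2 libraries at 2.49, 3.74, 4.08, 3.96, 4.99 and 3.31 CPM. The siNC libraries of replicates 1 and 2 lay within the siEgr2 range and the other 4 above it. The log2 fold change was -0.64 ± 0.21 (SE; edgeR, adjusted p = 0.0398). This call was the less firm of the pair. It was lost in 12 of 22 alternatives. Over all 22, the log2 fold change ran from -0.82 to -0.54 and the adjusted p-value (edgeR, DESeq2 or limma-voom) from 0.00630 to 0.195. Of the 12 edgeR fits that each left out 1 library, it held only without siNC replicate 1, siNC replicate 2 or siEgr2 replicate 5. In the edgeR fits without Traf1, Casp8 was the only member called.

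Ripk1, the kinase that carries the signal to NF-kB or to death, lies on chromosome 13 from 34002363 to 34037147. It ran from 28.3 to 34.9 CPM in siNC (median 31.8 CPM) and from 24.2 to 34.3 CPM in siEgr2 (median 32.6 CPM), and the groups overlapped. The log2 fold change was -0.041 with a 95% interval from -0.23 to 0.15, and without siEgr2 replicate 2 it was 0.017. Of its exon bases, 6.12% are shared with the pseudogene Gm17084 on the same strand and 2.89% with Serpinb6a on the other, and how shared reads were counted is not given in the sources used here.

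Casp8, the initiator caspase of death receptor signalling, had the largest change of the 9 tested members. It lies on chromosome 1 from 58795374 to 58847503. The siNC libraries stood at 3.28, 3.21, 3.51, 3.60, 3.93 and 5.17 CPM in replicate order, on 105 to 216 counts, and the siEgr2 libraries at 1.08, 1.06, 0.679, 1.94, 2.05 and 1.17 CPM, on 11 to 26 counts. Every siEgr2 library lay below every siNC library, and the highest siEgr2 library, replicate 5, was at 2.05 CPM against 3.21 CPM in the lowest siNC library. Casp8 thus fell from a mean of 3.78 ± 0.726 CPM to 1.33 ± 0.544 CPM (SD, n = 6 each). The log2 fold change was -1.54 ± 0.25 (SE; edgeR, adjusted p = 0.00036). It was called in all 22 alternatives, with a log2 fold change from -1.73 to -1.40. It was among the called genes also after every library was thinned to the smallest total.

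Cflar, the inhibitor of Casp8, lies on the same chromosome from 58711508 to 58758884, with 36489 bp and 1 other annotated gene between them. The siNC libraries were tight at 41.3, 41.9, 44.7, 45.1, 40.5 and 43.7 CPM, a coefficient of variation of 4.40%. In the siEgr2 libraries Cflar stood at 33.3, 9.28, 34.7, 10.1, 38.3 and 31.7 CPM, a coefficient of variation of 49.6%. Replicates 2 and 4 held 21.6% and 23.5% of the siNC mean, and the other 4 lay somewhat below the siNC range. Every siEgr2 library was thus below every siNC library, but the log2 fold change of -0.72 ± 0.33 (SE) was not called (95% interval -1.45 to 0.012, edgeR, adjusted p = 0.163). It was called by limma-voom alone among the 22 alternatives (log2 fold change -0.95, adjusted p = 0.0235). Of 5346 tested genes within 2-fold of its mean level, 0.767% varied as much or more among the siEgr2 libraries, whose median coefficient of variation was 10.2%. These were not low-count values, since replicates 2 and 4 held 114 and 135 Cflar counts where the other siEgr2 libraries held 299 to 561. Of the 11919 tested genes with a mean over 5 CPM, 4, Cflar included, had both of these libraries under 0.5 times the lowest other siEgr2 library, a description chosen after the values were seen. Over all 15 pairs of siEgr2 libraries, this number ran from 1 to 7.

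**Figure D3:**
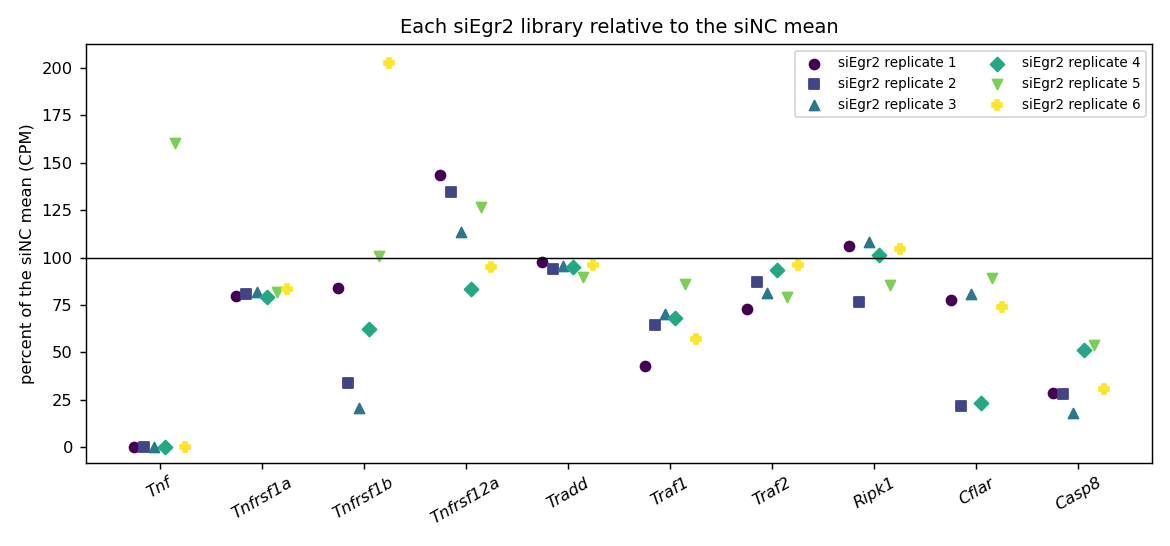
CPM of each siEgr2 library as a percent of the siNC mean of the same gene (y axis), with 1 symbol per replicate number. Tnfrsf1a (79.0% to 83.2%) and Tradd (90.0% to 97.9%) are tightly packed, Casp8 spans 17.96% to 54.2%, Cflar is at 21.6% and 23.5% in 2 libraries and at 73.9% to 89.3% in the other 4, and Tnfrsf1b spans 20.5% to 202%.

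The balance of Cflar and Casp8 within a library does not depend on the scaling. In siNC, a library held 8.45 to 13.1 Cflar counts per Casp8 count, with a median of 12.5. In siEgr2 the ratio was 30.9, 8.77, 51.0, 5.19, 18.7 and 27.1 in replicate order. The other 4 siEgr2 libraries, apart from replicates 2 and 4, therefore held more Cflar per Casp8 than any siNC library, replicate 4 held less than any, and replicate 2 lay at the lower end of the siNC values. The ratio of Tnfrsf1a to Tnfrsf1b counts was likewise narrow in siNC, 58.7 to 75.8, and wide in siEgr2, 28.7 to 279. The denominators were small in siEgr2, 8 to 50 Tnfrsf1b counts and 11 to 26 Casp8 counts, against 72 to 105 and 105 to 216 in siNC. Counting error therefore widens the siEgr2 ratios more. These ratios are counts per count, not corrected for gene length, and no test was made of them.

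The 100 bases before the RefSeq starts of Casp8 (chr1:58802402-58802501, plus strand), Cflar (chr1:58711391-58711490, plus strand) and Traf1 (chr2:34961773-34961872, minus strand) are shown because Casp8 and Traf1 are the called members and Cflar is the inhibitor of Casp8, and that of Tnf (chr17:35202008-35202107, minus strand) as the ligand. Capitals mark TATAAA, which 13.6% of all windows held.
Casp8: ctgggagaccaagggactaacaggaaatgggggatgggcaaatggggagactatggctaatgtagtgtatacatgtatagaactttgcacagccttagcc
Cflar: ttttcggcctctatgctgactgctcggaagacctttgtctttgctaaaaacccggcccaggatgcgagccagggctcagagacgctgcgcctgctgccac
Traf1: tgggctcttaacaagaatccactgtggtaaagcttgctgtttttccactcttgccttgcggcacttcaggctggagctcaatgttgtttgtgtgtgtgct
Tnf: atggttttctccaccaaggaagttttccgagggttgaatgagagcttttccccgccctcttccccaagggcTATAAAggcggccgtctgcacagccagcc
Neither Egr motif searched was in the full windows of these 4 genes, and neither was the NF-kB consensus, which 4.51% of all windows held. Such an absence speaks only of these letters in these windows. In particular, the RefSeq start of Casp8 lies 7128 bases downstream of the annotated gene start in GENCODE M21. TATAAA lies at -29 in Tnf, and in Cflar at -134 and -132, outside the bases printed.

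Beyond the members, 115 genes in 6 lists of the wider TNF pathway were examined, of which 94 were tested. Of these, 21 were called lower and 2 higher, where 5.08% and 2.63% of all tested genes were, and the median log2 fold change was -0.062. The 21 included Tnfsf11 and Tnfrsf26, which passed the count filter through the siNC libraries alone and add no support to that count. Of 17 tested TNF-inducible genes, 11 were called lower and 1 higher, with a median log2 fold change of -0.77. Of 28 tested genes of the receptor complex and its ubiquitin signalling, 2 were called lower and the median was 0.026, and none was called higher by edgeR (2 at an unadjusted p under 0.05). Of 23 tested death effectors and inhibitors, 1 was called lower and 1 higher, and the estimate was below 0 in 12 and above 0 in 11. The shares called in both of these lists are to be read against the same 5.08% lower and 2.63% higher over all tested genes. The 4 shedding genes had a median of -0.095 with 1 called lower, and the tested ligands and receptors had medians of -0.30 and -0.50. These lists were compiled with earlier results of these data known.

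**Figure D4:**
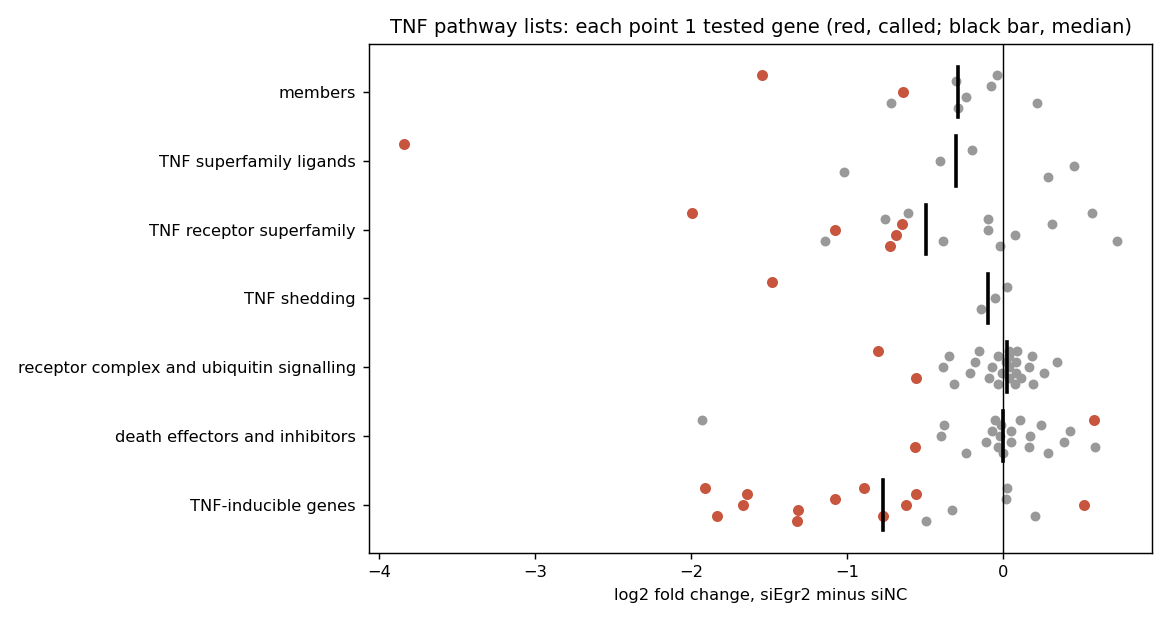
Log2 fold change (siEgr2 minus siNC, x axis) of every tested gene in the 10-gene set and in the 6 pathway lists (y axis), with called genes in red and list medians as black bars. The TNF-inducible genes lie mostly to the left with a median of -0.77, while the receptor complex and the death effectors centre near 0.

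Among the TNF-inducible genes, the chemokine Cxcl1 fell from 22.7 ± 1.89 to 5.97 ± 1.998 CPM (SD, n = 6 each), a log2 fold change of -1.91. Ccl2, which draws monocytes, fell from 27.2 ± 2.39 to 8.54 ± 1.92 CPM, and the interferon- and TNF-induced chemokine Cxcl10 from 10.8 ± 1.37 to 3.47 ± 1.47 CPM. The adhesion molecule Vcam1 fell from 87.2 ± 7.67 to 34.9 ± 2.66 CPM, a log2 fold change of -1.32. Tnfaip2, named for its induction by TNF, fell from 39.4 ± 18.9 to 11.0 ± 3.82 CPM. In these 5 genes every siEgr2 library lay below every siNC library, and edgeR's adjusted p-values spanned 2.46e-09 to 0.00247. Tnfaip8, an inhibitor of apoptosis, went the other way, from 20.8 ± 4.21 to 29.7 ± 3.43 CPM with a log2 fold change of 0.52 (adjusted p = 0.0101, edgeR), a call lost in 5 of 22 alternatives. Astrocytes also make these chemokines and Vcam1, and the astrocyte markers were lower in the same libraries, as given above. Their part in these decreases was not tested.

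The other ligands and receptors of the superfamily were mostly scarce. Of 17 ligands beyond Tnf, 6 had enough counts to be tested and 1 was called lower, Tnfsf11, the osteoclast factor RANKL. Each siNC library held 19 to 38 counts of it and each siEgr2 library 0 to 4, with counts in replicate 4 alone. Its fitted log2 fold change was -3.84, and -7.34 without siEgr2 replicate 4, which leaves the group at 0, so the size is no bound. It passed the count filter through the siNC libraries alone, and was not among the genes tested after thinning or with the filter at 1 CPM. Of 25 further receptors, 16 were tested and 5 were called lower, against 5.08% of all tested genes. Fas, a death receptor that acts through Fadd and Casp8, fell from 20.3 ± 0.618 to 9.59 ± 1.19 CPM (SD, n = 6 each), a log2 fold change of -1.07 (edgeR, adjusted p = 4.79e-07), with no overlap between the groups. The others were Ltbr (log2 fold change -0.65), the receptor of lymphotoxins, Tnfrsf22 (-0.72) and Tnfrsf23 (-0.68), decoy receptors of mice, and Tnfrsf26 (-1.99) on 0 to 6 counts per siEgr2 library. Ltbr, Tnfrsf22 and Tnfrsf23 were named after their values were seen, to complete the 5. Tnfrsf26 also passed the count filter through siNC alone, and its call was lost in 6 of the 14 alternatives in which it was tested. Being admitted by the higher group alone, these 2 genes add no support to the counts of genes called lower. Tnfrsf22, Tnfrsf23 and Tnfrsf26 are related genes, and reads shared among them may have been split or lost.

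Fadd, the adaptor that binds Casp8, was not called and had 10.4 ± 1.30 CPM in siNC and 12.7 ± 1.13 CPM in siEgr2 (log2 fold change 0.28, 95% interval 0.065 to 0.50, edgeR, adjusted p = 0.0664). Casp2 rose from 18.7 ± 4.40 to 27.97 ± 7.09 CPM, but its call was lost in 12 of 22 alternatives. Of the ubiquitin ligases that protect Ripk1 signalling, Birc3, itself an NF-kB target, fell from 3.13 ± 0.642 to 1.78 ± 0.549 CPM (log2 fold change -0.80, edgeR, adjusted p = 0.0228), a call lost in 4 of 22 alternatives. Birc2 had a log2 fold change of -0.21 (95% interval -0.37 to -0.054) and Tnfaip3, a deubiquitinase that ends the signal, of -0.39 (95% interval -0.70 to -0.076), and neither was called.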

How the data were processed

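RNA-seq was performed on 12 libraries of primary OLs, 6 siEgr2 and 6 siNC, grouped by their titles. The authors extracted total RNA with TRIzol, sequenced it on the Illumina platform with reads of 50 bp, and deposited a table of raw counts by gene symbol that had not been normalized. The submitters' processing notes name the build mm10; the aligner, the counter and the handling of strand are not given in the sources used here. 1 blank entry without counts was left out, and no library was a copy of another in its group (chi-square per gene of 7.56 to 39.8 over 30 pairs within groups). Pairs across the groups were not compared.

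The counts were tested with edgeR 4.0.16 under R 4.3.3 (filterByExpr, TMM, robust quasi-likelihood test) and adjusted by Benjamini-Hochberg over 16600 genes. Thresholds were those of the study's methods, here in both directions. CPM are on the TMM scale, and SE were taken from the log2 fold change and F. Tnf was compared by an exact permutation test on log2 of CPM plus 0.5. Gene models were GENCODE M21 on GRCm38, the assembly that mm10 also names. The members and lists were chosen with earlier results of these data known. Genes named were all members, the 8 largest falls and all rises among called pathway genes, and Adam17, Fadd, Tnfaip3, Birc2, Birc3 and Fas, with exceptions as stated; the rule also named 1 further gene, which is not reported here. Depth was 8034251 to 39383014 counts per library, and the smaller siEgr2 libraries limit the precision of genes with few counts. On simulated counts with 196 of 16455 genes changed by 1 on the log2 scale, 92.3% were recovered and 5.73% of calls were false. Alternatives were other scaling factors, DESeq2 1.42.0, limma-voom (limma 3.58.1), other filters, a replicate block, thinning, structural RNA left out, no fold change threshold and each library left out.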

Additional observations from a re-analysis of the deposited data

Results flagged for a closer look

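In 24 groups of 6 values (each member, Egr2 and the total counts, in siNC and in siEgr2), 3 single libraries stood apart from the other 5 by the gap to their nearest neighbour. Chance marks about 1 in 20 groups of continuous values. Tnf was at 0.640 CPM in siEgr2 replicate 5, from 5 counts in the smallest library, and at 0 in the other siEgr2 libraries, so that it stood apart by construction, whatever its size. Casp8 was at 5.17 CPM in siNC replicate 6, where the other siNC libraries reached at most 3.93 CPM. The same library was the deepest, with 39383014 counts against at most 32460116 in the other siNC libraries. The decrease of Casp8 did not rest on it, since every siEgr2 library was also below the other 5 siNC libraries, and with any 1 library left out the log2 fold change stayed between -1.71 and -1.40.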

How the results depend on the processing

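Of the members, Casp8 was called lower in all 22 alternatives, and 0 members were called higher in any. With Traf1 lost, 1 member was called lower with the replicate block and after thinning, and with any 1 library left out the count was 1 to 2. Called pathway genes beyond the members numbered 17 to 27 lower over the 23 alternatives. Those called higher numbered 0 with library size only and with no filter on low counts, 1 after thinning, 7 with no fold change threshold, and 0 to 2 with any 1 library left out. Scaling by library size alone moved the median over all genes from 0.0046 to -0.18 (log2) and 88.0% of called genes were lower, against 65.9% with TMM. With that scaling Tradd stood at -0.26, Ripk1 at -0.22, Traf2 at -0.42, Tnfrsf1b at -0.48 and Tnfrsf12a at 0.03, none of them called. Adam17 then stood at -0.15, and at -0.015 with no filter. With any 1 library left out, Adam17 ran from -0.034 to 0.13 and Ripk1 from -0.080 to 0.017. The cause of these changes was not tested.

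The difference of Tnf (log2 scale) was -0.61 with the replicate block (exact sign-flip test of 6 pairs, p = 0.0938) and -0.40 after thinning (exact permutation test, p = 0.177), at -1.73 and -0.35 with pseudocounts of 0.1 and 1, and ran from -0.81 to -0.49 over the values that each left out 1 library. Same-numbered libraries of the groups did not deviate together, with correlations from -0.039 to 0.042 over genes, so the numbers were not taken as pairs. With library size only, Egr2 was called (log2 fold change -0.70, edgeR, adjusted p = 0.0144). In edgeR with the replicate block, Traf1 was at -0.61 (adjusted p = 0.0501). No siEgr2 library held more than 6 counts of Tnf, Tnfsf11 or Tnfrsf26, and 94 of the 115 listed pathway genes had enough counts to be tested.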
